A study of Mus musculus with 6 samples.

Results

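Glutamate receptor and postsynaptic density genes were followed in brains that lack Bahd1, a chromatin protein that takes part in gene silencing. The set holds 40 of the 53801 genes in the count table and was taken by gene symbol, with earlier results of these data known. It comprises 4 AMPA, 5 kainate and 7 NMDA receptor subunits, 1 delta receptor subunit, 6 metabotropic receptors, 3 vesicular glutamate transporters, 12 scaffold proteins of the postsynaptic density and 2 kinase subunits. RNA-seq counts came from brain tissue of a single hemisphere, cut sagittally, of 3 Bahd1-KO (Bahd1-/-) and 3 Bahd1-WT (Bahd1+/+) adult mice of strain C57BL/6, about 70 weeks old, with no other allele or agent in either group. Bahd1 was absent from every cell throughout life, and many knockout pups die around birth, so that the adult mutants studied were survivors. The tissue is a mixture of all cells of the hemisphere, and fewer cells of a type and less RNA per cell cannot be told apart in it.

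At an excitatory synapse, vesicular transporters load glutamate into vesicles, and released glutamate opens AMPA, kainate and NMDA receptors, which are cation channels built of 4 subunits. AMPA receptors carry most of the fast current, NMDA receptors let in calcium, and metabotropic receptors act through G proteins. Beneath the membrane lies the postsynaptic density, in which Dlg4 (PSD-95), the Dlgap, Shank and Homer scaffolds link receptors to each other and to the kinase CaMKII.

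The receptor subunits are related proteins whose genes differ in base composition. A run of 9 amino acids in the channel gate was identical in 15 of the 17 ionotropic receptor subunits of the set, and the 27 coding bases behind it are shown for the 5 kainate subunits, for Grin1 and for Gria3 and Gria4, since these differ in how their counts behaved below. They were read from GENCODE transcripts of GRCm38, and capitals mark a G or C at the third base of a codon, where a change is often silent.
Grik3: tcCtaCacGgcCaaCctGgctgcCttC
Grik4: tcCtaCacGgcCaaCctGgcagcCttC
Grik5: tcCtaCacGgcCaaCctGgctgcCttC
Grik1: tcCtaCactgcCaaCctGgctgcCttC
Grik2: tcGtatacCgctaaCctagcCgcCttt
Grin1: tcCtaCactgcCaaCctGgcagcCttC
Gria3: tcCtaCactgcaaaCcttgctgctttC
Gria4: tcCtaCactgctaatctGgctgcattC
The segment of Grik5 lies in exon 16 (chr7:25015919-25015945, minus strand), that of Grik2 in exon 13 (chr10:49240690-49240716, minus strand) and that of Gria3 in exon 12 (chrX:41620858-41620884, plus strand). Of these 9 codons, Grik3, Grik4 and Grik5 end 8 in G or C, Grik2 ends 5, and Gria3 and Gria4 end 4. Over whole transcripts the base composition of the 40 genes ran from 36.8% GC in Gria2 to 69.0% GC in Prr7.

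The libraries held 42297150 to 93557948 counts, which leaves all but the lowest genes of the set well measured. For Bahd1, the deleted gene, 1383, 844 and 1099 reads were counted in Bahd1-WT against 0, 14 and 1 in Bahd1-KO (adjusted p = 0.0135, edgeR). Bahd1-KO mouse 2 stood apart from the other libraries. Its log2 CPM (counts per 1000000 of the scaled library size) over 13251 expressed genes correlated with those of the others at r = 0.814 to 0.960, against 0.929 or more among the other 5. The main log2 fold changes are therefore also given without it. Marker sets of neurons, astrocytes, oligodendrocytes, microglia and endothelium each summed to at least 133.3 CPM in every sample. The 5 neuron markers summed to 7598 to 8810 CPM in Bahd1-WT and 5774 to 7850 CPM in Bahd1-KO, the lowest in mouse 2. The 5 oligodendrocyte markers summed to 4887 to 5694 CPM against 5104 to 7898 CPM, the highest in mouse 2, and 2 of them, Mbp (log2 fold change 1.17) and Mag (1.66), separated the groups. All 4 lung markers were lower in Bahd1-KO at an unadjusted p under 0.05 in edgeR, with sums of 2.15 to 100.4 CPM in Bahd1-WT and 0.437 to 1.397 CPM in Bahd1-KO. Sums of 4 choroid plexus markers were 271.5 to 368.2 CPM against 451.8 to 1074 CPM, most of it Ttr (log2 fold change 1.29), while Kl (-0.40) was lower in all Bahd1-KO mice and Folr1 and Clic6 overlapped. Sums of 3 red cell markers were 9.40 to 13.3 CPM in Bahd1-WT and 12.6 to 75.9 CPM in Bahd1-KO, the highest in mouse 2. Those of 3 pituitary markers were 0.177 to 17.3 CPM against 0.0919 to 41.0 CPM. The part of these cells in the results was not tested.

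As a group, the 40 genes made up 0.672%, 0.597% and 0.667% of all counts in Bahd1-WT and 0.680%, 0.897% and 0.809% in Bahd1-KO. The groups did not overlap, with means of 0.645% ± 0.0419 (SD, n = 3) against 0.795% ± 0.109 (SD, n = 3). No member passed an adjusted p of 0.05 in edgeR's quasi-likelihood test across 23975 genes, in which 0.00834% of all genes did. At an unadjusted p under 0.05, 19 members were higher in Bahd1-KO, where 19.9% of all genes were, and 6 were lower, where 12% of all genes were. Of the members, 22 had a log2 fold change above 0, as had 46.6% of all genes. The median log2 fold change was 0.39 over the 40 members and -0.06 over all genes tested. The 3 mice of each genotype did not overlap in 15 members that were higher in Bahd1-KO, against 20.6% of all genes (for Prr7 through a single read each in Bahd1-KO mouse 1 and Bahd1-WT mouse 2), and in 8 that were lower, against 19.3% of all genes. DESeq2 with a normal prior, as an alternative, called 15 of the 39 members to which it gave an adjusted p, 14 of them higher and 1 lower, where it called 21.8% of all genes, 18.2% as higher and 3.68% as lower. The number of calls depended on the settings and on single mice. Among 40 members, edgeR called 9 with total counts as library sizes (9.4% of all genes), 16 with no filter on low counts (11%) and 25 without Bahd1-KO mouse 1 (30%). It called none without Bahd1-KO mouse 2 (0.0174% of all genes), where DESeq2 called 16 of 38 (17.1%), and none without any of the other 4 mice.

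**Figure D1:**
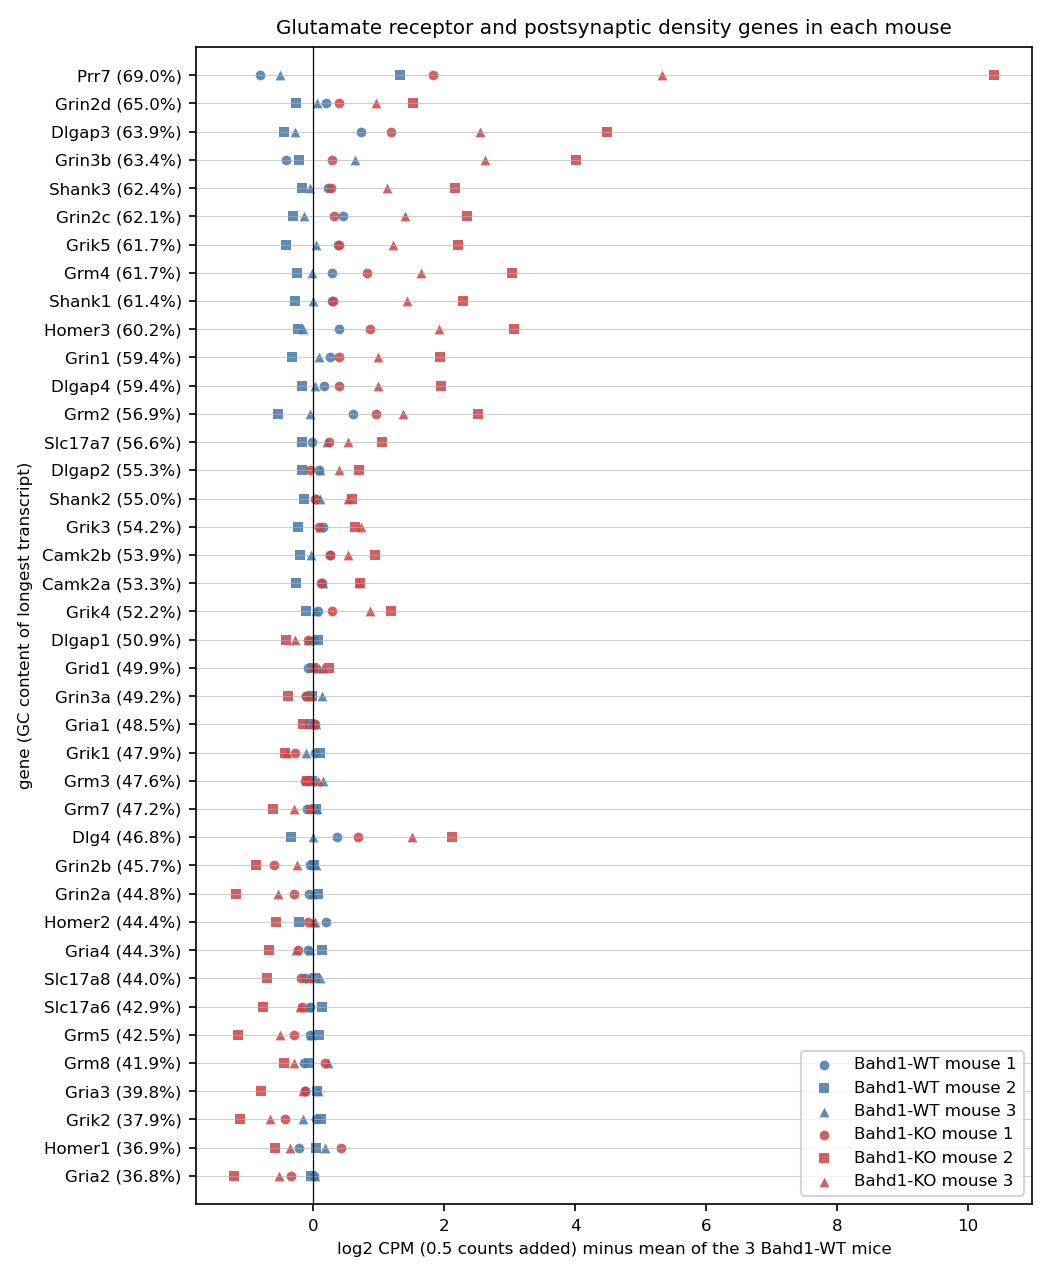
Each row is a gene of the set, from the lowest GC content at the bottom to the highest at the top, and each point is a mouse, as log2 CPM with 0.5 counts added minus the mean of the 3 Bahd1-WT mice. Bahd1-KO mouse 2 (red squares) was the highest of the 6 mice in 21 genes and the lowest in 17.

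The 3 Bahd1-KO mice differed among themselves. Mouse 2 was the highest of the 6 mice in 21 members, against 33.3% of all genes, and the lowest in 17, against 30.8%. It was at least 2-fold above the Bahd1-WT mean in 16 members, against 22.7% of all genes, and at least 2-fold below it in 4, against 13.2%. Bahd1-KO mouse 3 was at least 2-fold above the Bahd1-WT mean in 11 members, against 13.2% of all genes, and Bahd1-KO mouse 1 in 2, against 7.15%. Neither was 2-fold below it in any member, as mouse 3 was in 8.21% and mouse 1 in 7.52% of all genes. In 21 members the order within the Bahd1-KO group was mouse 2, then 3, then 1. Without mouse 2, 17 members were higher and 6 lower at an unadjusted p under 0.05 in edgeR, against 15.5% and 9.35% of all genes, and the median log2 fold change of the members was 0.24.

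AMPA receptors take their speed and calcium permeability from 4 subunits, and all 4 had log2 fold changes below 0. Gria2, whose edited subunit keeps calcium out, had 698.8, 680.2 and 709.0 CPM in Bahd1-WT and 545.7, 300.9 and 485.0 CPM in Bahd1-KO. All 3 Bahd1-KO mice lay below all Bahd1-WT mice, with mouse 2 the lowest. Its log2 fold change was -0.65 ± 0.22 (SE), with an adjusted p of 0.0939 in edgeR, and it was -0.44 without mouse 2. Gria1, the most abundant AMPA subunit per kilobase of exon (91.2 CPM per kilobase in Bahd1-WT), had 557.2, 528.9 and 567.9 CPM against 552.9, 494.8 and 540.3 CPM. The groups overlapped, and the log2 fold change was -0.06 with a 95% confidence interval of -0.37 to 0.26. Gria3 and Gria4 had log2 fold changes of -0.33 and -0.38, or -0.14 and -0.26 without mouse 2, and the groups overlapped in Gria3 but not in Gria4. Within each library the ratio of Gria2 to Gria1, in counts per kilobase of exon, was 0.487, 0.4998 and 0.485 in Bahd1-WT and 0.384, 0.236 and 0.349 in Bahd1-KO. This was a log2 difference of -0.63 (exact permutation test, two-sided p = 0.1, the smallest that 3 against 3 mice allow, 0.15 after Benjamini-Hochberg adjustment over 6 ratios). With an offset for GC content and length, described below, the difference was 0.02.

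Among kainate receptors, which modulate release and excitability, the low-affinity subunits Grik1 and Grik2 were lower in Bahd1-KO and Grik3 and the high-affinity subunits Grik4 and Grik5 were higher. Grik2 had 142.3, 148.9 and 124.0 CPM in Bahd1-WT and 102.2, 63.4 and 87.4 CPM in Bahd1-KO, with no overlap. Its log2 fold change was -0.71 ± 0.20 (SE), the lowest of the 40 members, with an adjusted p of 0.0663 in edgeR. Without mouse 2 it was -0.55. Grik5 had 40.7, 23.4 and 32.0 CPM against 41.1, 144.9 and 72.2 CPM. Bahd1-KO mouse 1 was only just above the highest Bahd1-WT mouse, while mouse 2 was far above. The log2 fold change of Grik5 was 1.43 ± 0.42 (SE, adjusted p = 0.0707, edgeR), or 0.83 without mouse 2. Grik4 (log2 fold change 0.82, or 0.60 without mouse 2) also separated the groups upward and Grik1 (-0.38, or -0.35) downward, whereas Grik3 (0.49, or 0.43) overlapped. The ratio of Grik5 to Grik2 in a library, in counts per kilobase, was 0.733, 0.403 and 0.661 in Bahd1-WT and 1.03, 5.86 and 2.12 in Bahd1-KO. This was a log2 difference of 2.01 (exact permutation p = 0.1, 0.15 after adjustment over 6 ratios), and of -0.10 with the offset described below.

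NMDA receptors pair the obligate subunit Grin1 with Grin2 subunits, which set channel kinetics, or with Grin3 subunits. Grin1 had 130.2, 87.0 and 115.5 CPM in Bahd1-WT and 144.0, 418.2 and 217.3 CPM in Bahd1-KO, with no overlap and a log2 fold change of 1.23 ± 0.36 (SE, adjusted p = 0.0702, edgeR), or 0.71 without mouse 2. The main forebrain partners Grin2a and Grin2b differed the other way. Grin2a had 185.3, 203.9 and 191.8 CPM against 156.8, 84.8 and 132.8 CPM, and Grin2b had 348.9, 363.1 and 369.6 CPM against 237.3, 195.3 and 302.4 CPM. In both genes every Bahd1-KO mouse lay below every Bahd1-WT mouse, with log2 fold changes of -0.63 (adjusted p = 0.0999) and -0.56 (adjusted p = 0.0879, edgeR), or -0.42 in both without mouse 2. Grin2c, the subunit of cerebellar granule cells, and Grin2d were higher, at 1.54 and 1.02, or 0.93 and 0.69 without mouse 2. Grin2c overlapped between the groups because Bahd1-KO mouse 1, at 21.996 CPM, lay below the highest Bahd1-WT mouse, at 24.2 CPM. As a share of the counts per kilobase of the 4 Grin2 genes, Grin2c took 15.6%, 9.48% and 10.6% in Bahd1-WT and 17.8%, 51.9% and 29.4% in Bahd1-KO. With an offset for GC content and length, described below, these shares were 21.6%, 18.6% and 17.6% against 17.6%, 23.4% and 22.04%, and overlapped. The ratio of Grin2b to Grin2a, by contrast, differed by 0.10 on the log2 scale (exact permutation p = 0.6). Grin3a (log2 fold change -0.17, or -0.08 without mouse 2) overlapped. Only 4, 3 and 7 reads of Grin3b were counted in Bahd1-WT, against 3, 101 and 23 in Bahd1-KO, which overlapped, and 32.1% of its exonic bases are shared with a gene on the other strand. The delta receptor subunit Grid1, a synaptic organizer, had 49.5, 52.5 and 55.6 CPM against 52.5, 61.6 and 58.1 CPM and a log2 fold change of 0.13, or 0.07 without mouse 2, with overlap between the groups.

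Of the 6 metabotropic receptors, Grm2 and Grm4, which damp glutamate release, were higher in all Bahd1-KO mice than in any Bahd1-WT mouse. Grm4 had 19.7, 13.6 and 16.04 CPM in Bahd1-WT and 28.6, 132.9 and 50.8 CPM in Bahd1-KO (log2 fold change 2.11 ± 0.49, SE, adjusted p = 0.0634, edgeR, or 1.28 without mouse 2). Grm2 had 8.65, 3.94 and 5.48 CPM against 11.1, 32.7 and 14.7 CPM (log2 fold change 1.70 ± 0.44, SE, or 1.10 without mouse 2). Grm5, the postsynaptic receptor that couples to calcium release and binds Homer proteins, was the most abundant of the 6 per kilobase (24.6 CPM per kilobase in Bahd1-WT) and lay on the other side, with 243.5, 268.9 and 245.1 CPM against 205.1, 112.8 and 176.8 CPM. The groups did not overlap, and its log2 fold change was -0.61 ± 0.22 (SE, adjusted p = 0.104, edgeR), or -0.41 without mouse 2. Grm3, Grm7 and Grm8 had log2 fold changes of -0.04, -0.30 and -0.17, or -0.01, -0.17 and -0.06 without mouse 2, and overlapped.

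The vesicular transporters also differed among themselves. Slc17a7 (VGLUT1), the transporter of cortical and cerebellar excitatory neurons, had 376.0, 335.8 and 438.2 CPM in Bahd1-WT and 448.5, 791.7 and 549.9 CPM in Bahd1-KO. Slc17a6 (VGLUT2), which prevails in the thalamus and brainstem, had 202.2, 227.8 and 198.5 CPM against 185.0, 122.6 and 181.0 CPM. Neither overlapped between the groups, the first with a log2 fold change of 0.64 ± 0.23 (SE, adjusted p = 0.102, edgeR) and the second with -0.36 ± 0.19 (SE, adjusted p = 0.211, edgeR). Without mouse 2 these were 0.38 and -0.20. Slc17a8 (VGLUT3), at 4.53 to 7.98 CPM, overlapped. The ratio of Slc17a7 to Slc17a6, in counts per kilobase, was 1.86, 1.48 and 2.21 in Bahd1-WT and 2.43, 6.47 and 3.04 in Bahd1-KO. The log2 difference was 0.99, or 0.57 without mouse 2 (exact permutation p = 0.1, 0.15 after adjustment over 6 ratios), and -0.32 with the offset described below. Marker sums of the neurons that use these transporters overlapped between the groups. The 6 markers of cortical and hippocampal excitatory neurons summed to 180.2 to 292.2 CPM in Bahd1-WT and 238.7 to 284.8 CPM in Bahd1-KO, and the 4 thalamic markers to 342.9 to 379.5 CPM and 267.7 to 351.4 CPM. Single markers did separate the groups, among them Slc30a3 (log2 fold change 2.84, or 1.31 with the offset described below) and Emx1 (2.42, or 0.12) of the first list and Ramp3 (2.33, or 1.42) and Rora (-0.55, or -0.02) of the second. The part of cell numbers in this result was not tested.

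Scaffold genes held the highest fold changes of the set, with 9 of 12 above 0, against 46.6% of all genes, and 7 higher at an unadjusted p under 0.05 in edgeR, against 19.9%. Dlg4, the main scaffold of the excitatory postsynaptic density, had 201.6, 123.8 and 156.5 CPM in Bahd1-WT and 251.1, 682.1 and 447.0 CPM in Bahd1-KO. All Bahd1-KO mice lay above all Bahd1-WT mice, and the log2 fold change was 1.52 ± 0.34 (SE, adjusted p = 0.0634, edgeR), or 1.13 without mouse 2. Dlgap3, a partner of Dlg4 and Shank that is abundant in the striatum, had 19.3, 8.58 and 9.63 CPM against 26.5, 263.4 and 67.9 CPM. Mouse 2 was the highest and mouse 3 was also well above all Bahd1-WT mice, and the log2 fold change of 3.25 ± 0.76 (SE, adjusted p = 0.0634, edgeR) became 1.93 without it. Homer3, the Homer of cerebellar Purkinje cells, had 13.2, 8.52 and 8.94 CPM against 18.3, 83.9 and 37.8 CPM, with no overlap, and 25.4% of its exonic bases are shared with a gene on the other strand. Its log2 fold change was 2.19 ± 0.49 (SE, adjusted p = 0.0634, edgeR), or 1.46 without mouse 2. Shank1, Shank3 and Dlgap4, with log2 fold changes of 1.53, 1.39 and 1.25, or 0.96, 0.76 and 0.72 without mouse 2, separated the groups as well, while Shank2 (0.40, or 0.30 without mouse 2) and Dlgap2 (0.37, or 0.19) did not. Shank proteins bind Dlgap and Homer proteins and tie the density to actin. The ratio of Shank3 to Shank2, in counts per kilobase, was 0.592, 0.512 and 0.473 in Bahd1-WT and 0.618, 1.57 and 0.792 in Bahd1-KO. This was a log2 difference of 0.81, or 0.42 without mouse 2 (exact permutation p = 0.1, 0.15 after adjustment over 6 ratios), and of -0.01 with the offset described below.

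Prr7, a membrane protein of the postsynaptic density, was almost absent from the counts of 4 mice. Of its reads, 0, 1 and 0 were found in Bahd1-WT, and 1, 1246 and 22 in Bahd1-KO, so that only mice 2 and 3 exceeded a floor of 3 counts per library. Against that floor in Bahd1-WT, the Bahd1-KO mean was at least 92.5-fold higher, and at least 4.15-fold higher without mouse 2. DESeq2 gave Prr7 no adjusted p. The Homer1, Homer2 and Dlgap1 scaffolds were on the other side, with log2 fold changes of -0.11, -0.21 and -0.25, but of 0.07, -0.05 and -0.18 without mouse 2. Dlgap1, the most abundant scaffold per kilobase (28.1 CPM per kilobase in Bahd1-WT), had 506.8, 525.8 and 474.3 CPM against 475.1, 376.1 and 412.6 CPM and overlapped only through mouse 1. Homer1 had 158.4, 188.6 and 207.7 CPM in Bahd1-WT and 246.2, 122.8 and 143.6 CPM in Bahd1-KO, so that mouse 1 was the highest of all 6 and mice 2 and 3 the lowest. Homer3 took 16.2%, 10.7% and 10.1% of the counts per kilobase of the 3 Homer genes in Bahd1-WT and 17.0%, 63.3% and 38.2% in Bahd1-KO. With the GC and length offset described below, these shares were 23.6%, 22.4% and 17.4% against 16.8%, 27.3% and 28.2%, and overlapped. Dlgap3 took 9.47%, 4.59% and 5.27% of the counts per kilobase of the 4 Dlgap genes against 12.7%, 50.2% and 25.7%. With the offset Dlgap3 took 12.3%, 7.62% and 8.05% against 12.3%, 30.6% and 21.99%, and overlapped through mouse 1. Shares are of counts per kilobase of exon, and serve here to compare mice and not genes.

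**Figure D2:**
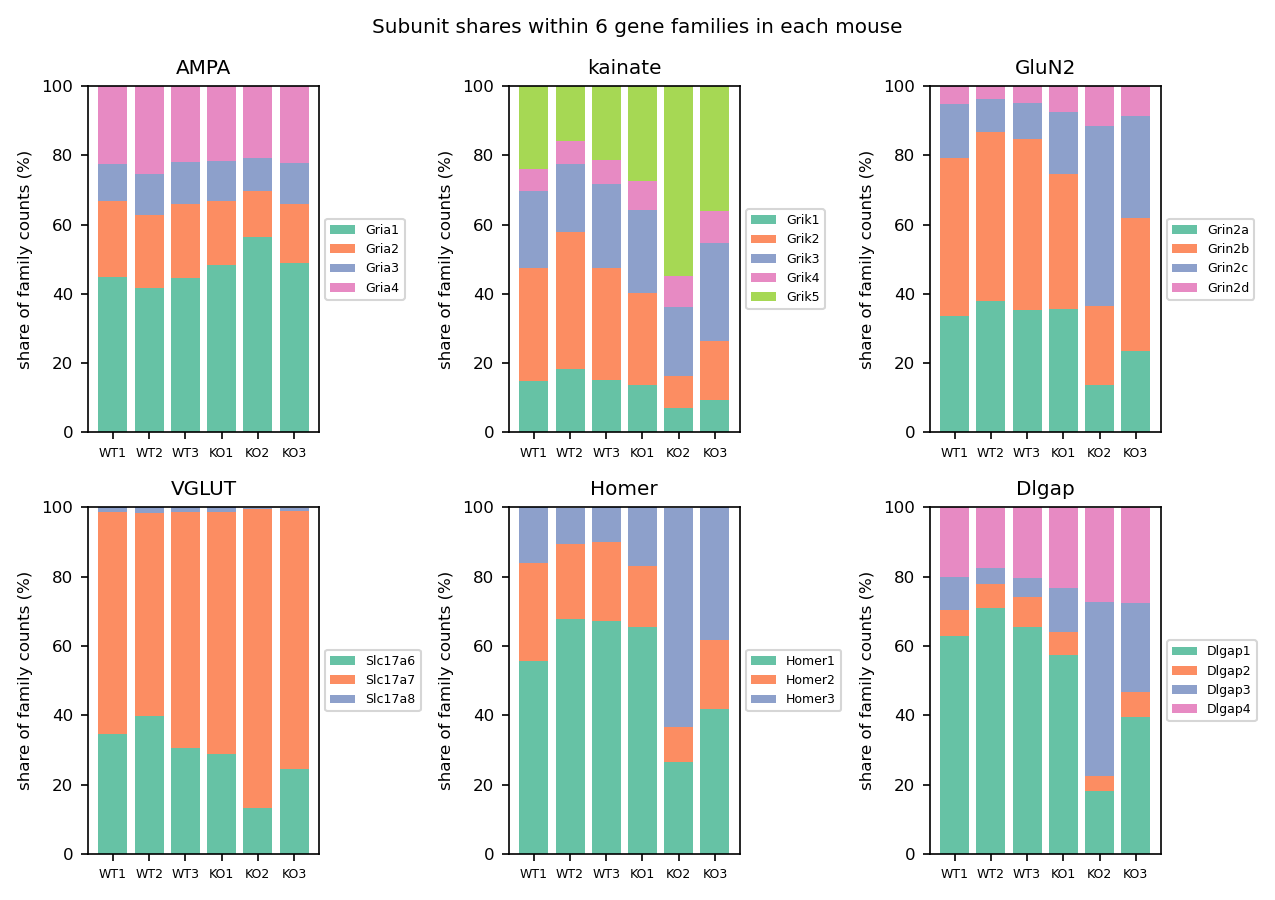
Each bar is a mouse and each colour a gene, as percent of the counts per kilobase of exon of its family in that library. Families are the AMPA, kainate and GluN2 (Grin2) subunits, the vesicular transporters (VGLUT) and the Homer and Dlgap scaffolds. Grik5, Grin2c, Slc17a7, Homer3 and Dlgap3 took their largest shares in Bahd1-KO mouse 2.

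The CaMKII subunits, the alpha and beta chains of a calcium-dependent kinase, differed alike. Camk2a, at 146 CPM per kilobase the most abundant member, had 1187.7, 896.7 and 1193.0 CPM in Bahd1-WT and 1178.0, 1779.3 and 1746.5 CPM in Bahd1-KO, with overlap through mouse 1. Camk2b had 465.8, 337.0 and 379.4 CPM against 467.6, 749.3 and 564.8 CPM. Their log2 fold changes were 0.52 and 0.59, or 0.42 and 0.39 without mouse 2, and the ratio of Camk2a to Camk2b differed by -0.07 on the log2 scale (exact permutation p = 0.5).

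The direction of the differences followed base composition. All 20 members with the highest GC content, 52.2% to 69.0% of the longest transcript, had log2 fold changes above 0 (median 1.32, 18 of them at an unadjusted p under 0.05, against 19.9% of all genes). Of the 20 with the lowest, 36.8% to 50.9%, 18 were below 0 (median -0.30, 6 at an unadjusted p under 0.05, against 12% of all genes), and the exceptions were Grid1 and Dlg4. Dlg4 has 46.8% GC in its longest annotated transcript but 56.8% in its coding sequence. Across the 40 members, which share the same 6 libraries, the log2 fold change correlated with transcript GC at a Spearman rho of 0.87, and at 0.84 without mouse 2. Across 13251 expressed genes the rho was 0.86, so that the relation was not particular to synapse genes. Compared with the mean of the Bahd1-WT mice, Bahd1-KO mice 1, 2 and 3 gave a rho with GC of 0.72, 0.91 and 0.86 over the members and of 0.67, 0.88 and 0.82 over the expressed genes. Mouse 1 was above the Bahd1-WT mean in 19 of the 20 members with the highest GC content and below it in 15 of the 20 with the lowest. What sets the libraries apart in this way was not tested.

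**Figure D3:**
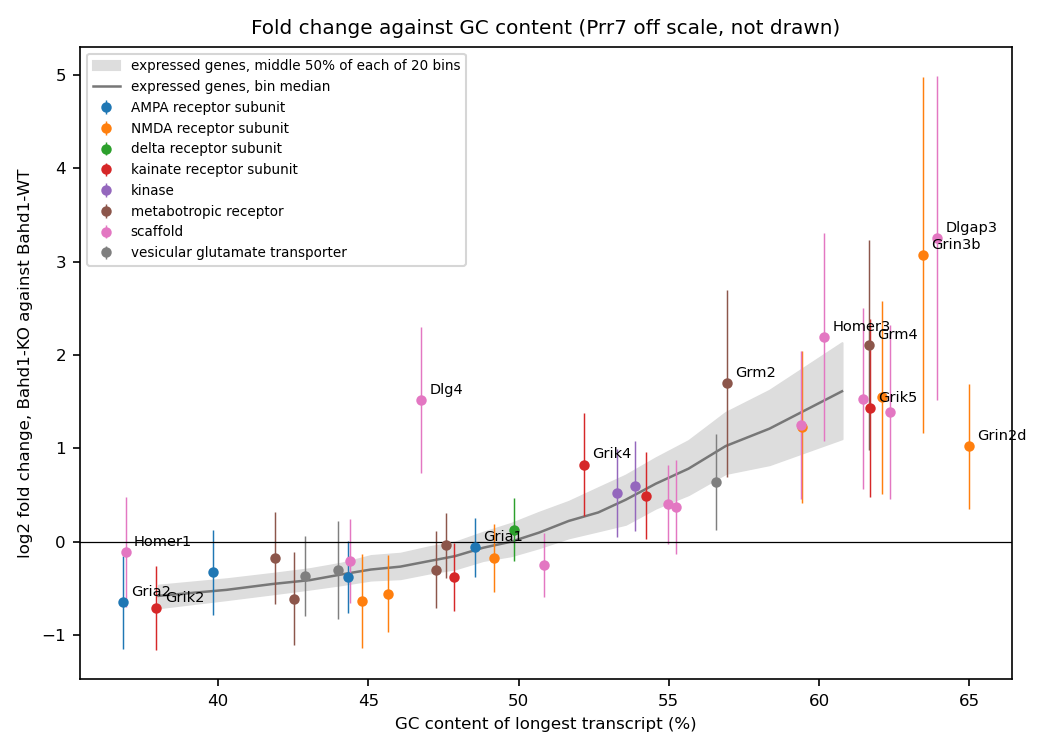
Log2 fold change of 39 members (points, with 95% confidence intervals of the edgeR fit, coloured by role) against the GC content of the longest transcript. The grey line and band give the median and the interquartile range in 20 bins of 13251 expressed genes, and Dlg4, at 46.8% GC, lies above the band, while Gria2 and Grik2 lie at its low end. Prr7 is off scale and not drawn.

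Inside the receptor families the order was followed in part. Gria1, with 48.5% GC, had the highest fold change of the AMPA subunits and Gria2, with 36.8%, the lowest. Grik2 and Grik1, with 37.9% and 47.9% GC, were lower in Bahd1-KO, and Grik3, Grik4 and Grik5, with 54.2%, 52.2% and 61.7%, were higher. Grin2a and Grin2b, with 44.8% and 45.7% GC, stood against Grin2c and Grin2d, with 62.1% and 65.0%. Neighbours in GC content could lie the other way round, as did Gria4 (44.3%) below Gria3 (39.8%), Grik3 below Grik4, Grin2d below Grin2c and Grm5 (42.5%) below Grm8 (41.9%). In the gate segments printed above, Grik5 and Grik2, which had the highest and lowest fold changes among kainate subunits, carry 17 and 14 G or C bases of 27 for the same amino acids. The segment did not follow transcript GC throughout, since Gria2, with 36.8% GC, carries 14 such bases and Gria4, with 44.3% GC, carries 13. Across the 40 members the coding sequence gave a rho of 0.87 with the log2 fold change and the bases that end its codons a rho of 0.77.

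The promoter did not follow this order. RefSeq windows of GRCm38.p6, each of 300 bases around a transcription start, were matched for 27 members, and in 23 of these the start of the nearest window lay within 1000 bases of the annotated start of the gene. Over the 23 members the log2 fold change gave a rho of 0.21 with the GC content of the window and of -0.03 with its number of CG dinucleotides, against 0.87 with transcript GC. Their windows held a median of 22 CG, against 7 in all 32851 windows of the table, of which 94.6% hold at least 1 CG. The windows of Grik5 (chr7:25072320-25072619, minus strand, 10 CG, 72.0% GC) and Grik2 (chr10:49788705-49789004, minus strand, 26 CG, 64.7% GC) are shown, with each CG in capitals, since these kainate subunits differed in opposite directions.
Grik5: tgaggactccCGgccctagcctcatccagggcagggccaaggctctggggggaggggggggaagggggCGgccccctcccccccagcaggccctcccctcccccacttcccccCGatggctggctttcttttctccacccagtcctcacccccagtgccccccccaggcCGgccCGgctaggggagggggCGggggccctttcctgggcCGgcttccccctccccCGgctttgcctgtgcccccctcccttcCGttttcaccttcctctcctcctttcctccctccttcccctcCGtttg
Grik2: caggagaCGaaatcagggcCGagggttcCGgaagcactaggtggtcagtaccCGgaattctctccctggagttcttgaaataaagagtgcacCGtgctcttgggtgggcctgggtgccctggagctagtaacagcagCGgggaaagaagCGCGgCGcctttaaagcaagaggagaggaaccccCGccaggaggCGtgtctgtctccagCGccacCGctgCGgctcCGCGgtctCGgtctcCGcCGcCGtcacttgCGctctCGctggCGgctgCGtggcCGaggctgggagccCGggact
Grik5, with 61.7% GC in its transcript, was higher in Bahd1-KO, and Grik2, with 37.9%, was lower, while the GC contents of their windows lie closer together.

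To see what was left once base composition was taken out, each library's counts were fitted with an offset for GC content and length, estimated on 13251 expressed genes. Since each Bahd1-KO library differed from Bahd1-WT along GC content, the offset also removes any genotype difference that follows it. These cannot be told apart here. The median size of the members' log2 fold changes went from 0.60 to 0.20, their median from 0.39 to -0.02, and their rho with GC to -0.04. No member passed an adjusted p of 0.05 in edgeR, where 0.0167% of all genes did. At an unadjusted p under 0.05, 9 were higher and 6 lower, against 9.88% and 11.5% of all genes. With the offset the groups were apart upward in 7 members, against 11.6% of all genes, and downward in 5, against 14.6%. In 20 of the 40 members the log2 fold change had the other sign with the offset, and in 11 with an offset on coding-sequence GC. With that offset 12 members were higher and 3 lower at an unadjusted p under 0.05 in edgeR, against 11.7% and 12.7% of all genes, and with the transcript GC offset but without mouse 2, 9 were higher and 4 lower, against 6.7% and 7.42%.

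**Figure D4:**
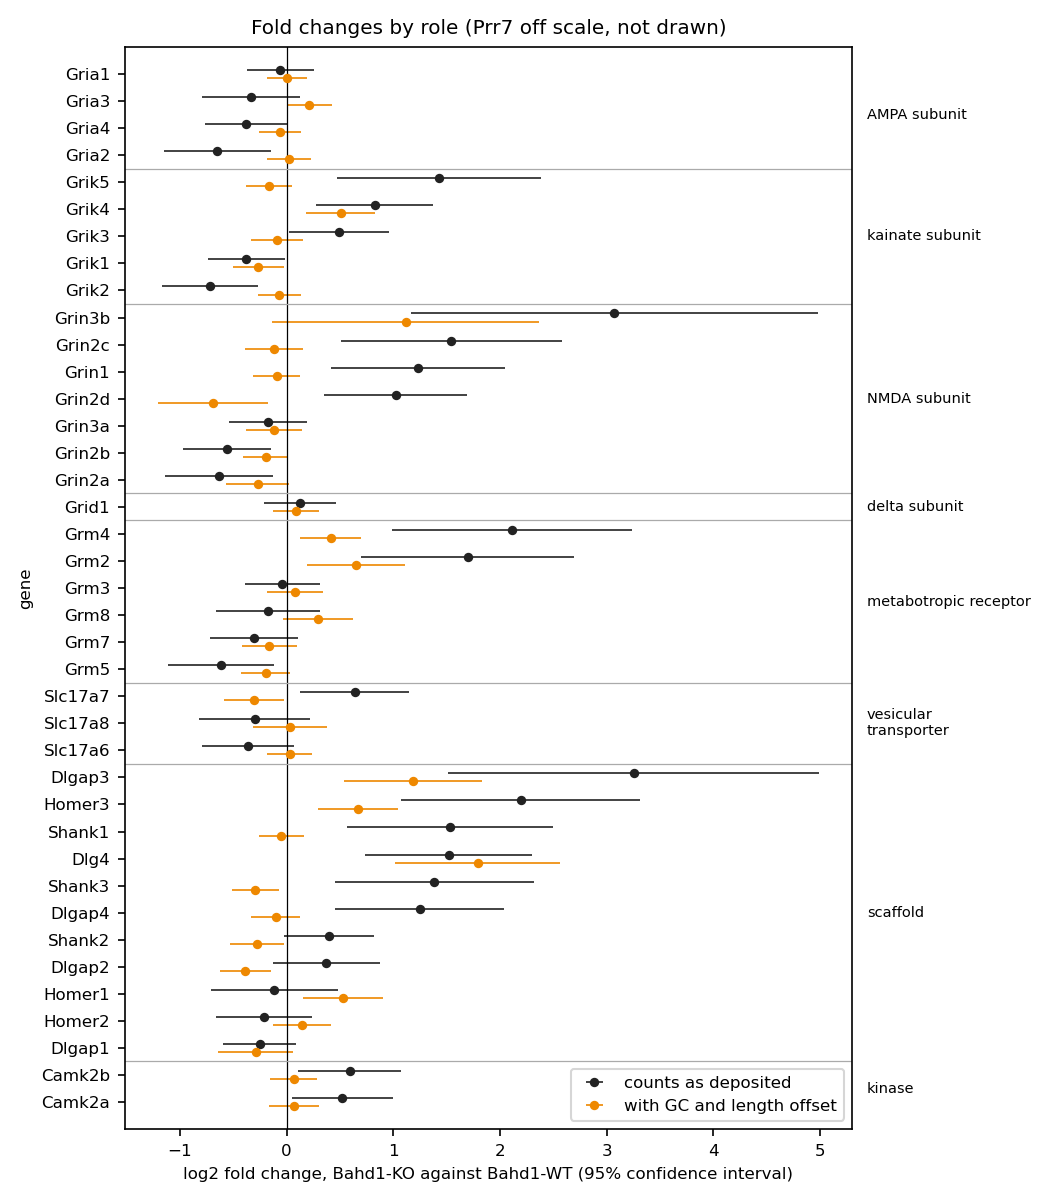
Log2 fold change of 39 members, all but Prr7, with its 95% confidence interval, from counts as deposited (black) and with the GC and length offset (orange), ordered by role. With the offset the AMPA subunits lie between -0.06 and 0.21 and the kinase subunits at 0.06 and 0.07, while Dlg4, Dlgap3, Homer3, Grm2, Grik4 and Grm4 lie above 0. Others above 0 include Grin3b (1.12) and Homer1 (0.53), in which the groups overlap with the offset.

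With the offset the AMPA subunits had log2 fold changes from -0.06 to 0.21, Camk2a and Camk2b of 0.07 and 0.06, Grin1 of -0.09 and Shank1 of -0.05. These values depended on the GC measure: with coding-sequence GC, Grin1 was at 0.85 and Shank1 at 0.62, while Camk2a and Camk2b were at 0.11 and -0.05. The ratio of Gria2 to Gria1 differed by 0.02, that of Grik5 to Grik2 by -0.10, that of Slc17a7 to Slc17a6 by -0.32 and that of Shank3 to Shank2 by -0.01 (exact permutation p = 0.6, 0.6, 0.2 and 1). In 6 members, against 8.63% of all genes, the groups were apart upward both as deposited and with the offset: Dlg4 (1.79 with the offset), Dlgap3 (1.18), Homer3 (0.67), Grm2 (0.65), Grik4 (0.51) and Grm4 (0.41). In Grik1 (-0.26) and Grm5 (-0.19) they were apart downward both ways, as in 7.39% of all genes. The lowest adjusted p among these was that of Dlg4, at 0.079 in edgeR. Without mouse 2 as well, the 6 members had log2 fold changes of 1.26, 0.79, 0.53, 0.47, 0.38 and 0.26, and Grik1 and Grm5 of -0.28 and -0.11. With GC taken from the coding sequence instead, Dlg4 was at 1.01 (adjusted p = 0.103, edgeR), Dlgap3 at 2.14, Homer3 at 1.09, Grm4 at 1.10, Grm2 at 0.73 and Grik4 at 0.37, while Grik1 was at -0.01 and Grm5 at -0.49. On the other side, Grin2d (1.02 as deposited) was at -0.69 and Shank3 (1.39) at -0.29 with transcript GC in the offset, but at 0.38 and 0.50 with coding-sequence GC. Dlgap2 (0.37 as deposited), Shank2 (0.40) and Slc17a7 (0.64) were at -0.39, -0.28 and -0.31 with transcript GC. They stayed below 0 with coding-sequence GC, at -0.17, -0.29 and -0.13.

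Other genes of the glutamate synapse, 55 in number, were read for comparison. They comprise auxiliary receptor subunits, neuroligins and other adhesion proteins, glutamate transporters and enzymes, and further postsynaptic proteins. As deposited, 33 had log2 fold changes above 0 (46.6% of all genes had), 21 were higher and 2 lower at an unadjusted p under 0.05 (19.9% and 12% of all genes were), and none passed an adjusted p of 0.05 in edgeR. The highest were Abhd17a, an enzyme that removes palmitate from Dlg4, with 4.40, 2.14 and 2.65 CPM in Bahd1-WT and 7.56, 83.5 and 15.7 CPM in Bahd1-KO (log2 fold change 3.54, or 1.93 without mouse 2), and Begain, a Dlg4 partner (2.19, or 1.48). The lowest were Nlgn1 and Nlgn3, adhesion proteins of the postsynaptic membrane, at -0.67 and -0.51, or -0.49 and -0.28 without mouse 2. The rho with GC was 0.88 over the 55 genes. With the offset, 7 were higher and 12 lower at an unadjusted p under 0.05, against 9.88% and 11.5% of all genes, and Abhd17a was at 1.25, or 0.78 without mouse 2. Begain was then at 0.41, Nlgn1 at -0.07 and Nlgn3 at -0.48, and the lowest with the offset were Shisa7 (-0.94), Ppp1r9b (-0.88) and Camk2n1 (-0.80).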

How the data were processed

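Strand-specific reads from 3 Bahd1-WT and 3 Bahd1-KO mice were processed by the authors, who trimmed them with Cutadapt 1.11, aligned them to GRCm38 with STAR 2.5.0a and counted them per Ensembl gene with featureCounts 1.4.6-p3. In 300 of 301 pairs of a non-coding gene lying inside exons of a protein-coding gene on the other strand, the protein-coding gene had more counts per base, so that counts were taken as those of the gene's own strand. The deposited values are raw counts, with 1 column per mouse that merges 3 technical sequencing runs. Of all genes, 23975 reached a summed count of 10 and entered edgeR 4.0.16 (quasi-likelihood test, TMM scaling, genotype as the only term, Benjamini-Hochberg adjustment over all genes, R 4.3.3). DESeq2 1.42.0, other scalings and filters, omission of each mouse and a replicate block were alternatives. For the GC and length offset, log2 CPM of 13251 genes with a mean log2 CPM above 1 was fitted in each library with natural splines (5 degrees of freedom for GC of the longest GENCODE transcript, 3 for exonic length). Fits were tested on simulated data. Within-library ratios and family shares were taken from counts per kilobase of exon, and the ratios were compared with exact two-sided permutation tests. All members are named, with values for the lowest, the highest and the most abundant of each role. Counting error is small at these depths, except for Prr7 and Grin3b. The members and gene lists were chosen with earlier results of these data known.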

Additional observations from a re-analysis of the deposited data

How the results depend on the processing

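Direction and the side of the threshold were kept in all 40 members with DESeq2 size factors and with edgeR's robust shrinkage, and in the 38 members that pass edgeR's stricter expression filter, which Prr7 and Grin3b fail. Of members past an adjusted p of 0.05, edgeR gave 0 as reported (0.00834% of all genes), 9 with total counts (9.4%) and 16 with no filter on low counts (11%). DESeq2 gave 15 with its prior (21.8% of all genes), 15 without it (21.8%) and 16 without Bahd1-KO mouse 2 (17.1%). In edgeR, leaving out each mouse in turn gave 0 to 25 (0% to 30% of all genes). Over the same 6 omissions, 15 to 21 members were higher (13.5% to 24.7% of all genes) and 3 to 10 lower (4.79% to 18.6%) at an unadjusted p under 0.05, and the median log2 fold change was 0.24 to 0.58. With the GC and length offset 9 members were higher and the median was -0.023. The alternatives that combine this offset with coding-sequence GC or with the omission of Bahd1-KO mouse 2, and DESeq2 without that mouse, were chosen after seeing the data. They gave 12 higher (11.7% of all genes), 3 lower (12.7%) and a median of 0.088 with coding-sequence GC, and 9 higher (6.7%), 4 lower (7.42%) and a median of 0.013 without mouse 2. The causes of these differences were not tested.

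Replicate numbers are shared between the genotypes but do not pair the mice: the deviations of same-numbered mice correlated at -0.65, -0.66 and -0.14, and none of the 6 correlated best with its own number. With the replicate number as a block, 1 member was called (Prr7), against 0.0292% of all genes. With block and offset together, 1 was called (0.0375% of all genes), 8 were higher and 3 lower at an unadjusted p under 0.05 (7.57% and 8.28%), and the median was -0.024.

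Among the within-library ratios, leaving out each mouse gave log2 differences of -0.77 to -0.42 for Gria2 to Gria1, 1.35 to 2.60 for Grik5 to Grik2, 0.57 to 1.28 for Slc17a7 to Slc17a6, 0.42 to 1.09 for Shank3 to Shank2, -0.0046 to 0.30 for Grin2b to Grin2a and -0.18 to 0.022 for Camk2a to Camk2b. The ratio of Grin2b to Grin2a turned to -0.0046 without Bahd1-KO mouse 2, and that of Camk2a to Camk2b to 0.0092 without that mouse and 0.022 without Bahd1-WT mouse 3. With the offset, 5 of the 6 ratios turned, to 0.023 for Gria2 to Gria1, -0.097 for Grik5 to Grik2, -0.32 for Slc17a7 to Slc17a6, 0.0054 for Camk2a to Camk2b and -0.0074 for Shank3 to Shank2.

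The sign of the log2 fold change turned in the following members. With the offset these were Gria1 at 0.0043, Gria2 at 0.026, Gria3 at 0.21, Grik3 at -0.088, Grik5 at -0.17, Grin1 at -0.095, Grin2c at -0.12, Grin2d at -0.69, Grm3 at 0.081, Grm8 at 0.29, Slc17a6 at 0.027, Slc17a7 at -0.31, Slc17a8 at 0.034, Shank1 at -0.050, Shank2 at -0.28, Shank3 at -0.29, Homer1 at 0.53, Homer2 at 0.14, Dlgap2 at -0.39 and Dlgap4 at -0.10. With offset and block they were Gria1 at 0.0041, Gria2 at 0.027, Gria3 at 0.21, Grik3 at -0.093, Grik5 at -0.17, Grin1 at -0.096, Grin2c at -0.12, Grin2d at -0.74, Grm3 at 0.077, Grm8 at 0.29, Slc17a6 at 0.024, Slc17a7 at -0.30, Slc17a8 at 0.025, Shank1 at -0.053, Shank2 at -0.28, Shank3 at -0.29, Homer1 at 0.52, Homer2 at 0.15, Dlgap2 at -0.39 and Dlgap4 at -0.10. With the offset and without Bahd1-KO mouse 2 they were Gria1 at 0.026, Gria2 at 0.056, Gria3 at 0.24, Grik3 at -0.00025, Grik5 at -0.17, Grin1 at -0.13, Grin2c at -0.12, Grin2d at -0.45, Grm3 at 0.077, Grm8 at 0.25, Slc17a6 at 0.070, Slc17a7 at -0.25, Slc17a8 at 0.11, Shank1 at -0.068, Shank2 at -0.19, Shank3 at -0.30, Homer1 at 0.52, Homer2 at 0.19, Dlgap2 at -0.34 and Dlgap4 at -0.14. With coding-sequence GC in the offset they were Gria3 at 0.15, Gria4 at 0.063, Grin3a at 0.015, Grid1 at -0.19, Grm3 at 0.14, Grm8 at 0.23, Slc17a7 at -0.13, Shank2 at -0.29, Homer1 at 0.33, Dlgap2 at -0.17 and Camk2b at -0.055. With total counts they were Gria1 at 0.018 and Grm3 at 0.036, and with upper-quartile factors Grid1 at -0.018. Without a single mouse they were Grm3 (0.0057 without Bahd1-KO mouse 1 and 0.036 without Bahd1-WT mouse 3, in a range of -0.11 to 0.036) and Homer1 (0.066 without Bahd1-KO mouse 2, in a range of -0.45 to 0.066), and with DESeq2 without that mouse Grm3 at 0.00058 and Homer1 at 0.072. With 3 mice in each group, an exact test cannot give a p below 0.1, and Prr7 and Grin3b have too few reads in Bahd1-WT for a precise fold change.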
